A study of Mus musculus with 12 samples.

Results

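The lysosome, cathepsin and autophagy genes described here were 39 mouse genes chosen by symbol: 3 transcription factors of the MiT/TFE family, 9 cathepsins, 3 membrane proteins of the lysosome, 6 enzymes or activators that degrade glycoconjugates and sphingolipids, 2 sterol carriers, 4 subunits of the proton pump, 5 genes of the autophagy receptor and ATG8 family and 7 genes that start autophagy or build its membrane. Each symbol was paired with 1 Ensembl gene, and all 39 were found among the 38924 genes of the count tables. Their levels were compared in RNA sequenced from 12 pancreatic neuroendocrine tumors (PanNETs, insulinomas) of RIP1Tag2 mice on the C57Bl6 strain. These mice, the controls included, carry a transgene in which the rat insulin promoter drives a viral oncogene in pancreatic beta cells. 4 tumors came from mice given saline (control), 4 from mice given sunitinib alone, which blocks receptor tyrosine kinases of blood vessel growth, and 4 from mice given rapamycin plus sunitinib (R+S). Treatment started at 15.5 weeks of age and lasted 4 days in all groups, and the labels give no dose. No group received rapamycin alone, so rapamycin was compared only on top of sunitinib.

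The lysosome is the acidic compartment in which cells degrade proteins, lipids and glycans. Cathepsins are its proteases, the V-ATPase pumps in the protons that keep it acidic, and autophagy delivers parts of the cell to it inside a double membrane. The kinase complex mTORC1, which rapamycin inhibits in part, sits on the lysosome when nutrients are plentiful, and there it phosphorylates TFEB and its relatives TFE3 and MITF and holds them in the cytoplasm. When mTORC1 is inactive these factors can enter the nucleus and bind E-box letters in promoters of lysosomal and autophagy genes. TFEB-type control acts on the location of the protein, which counts of RNA do not measure. Whether rapamycin, added to sunitinib, moved the RNA levels of these genes was the question of the main comparison.

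Reads assigned to genes numbered 31872342 to 44215054 in a tumor (median 38526164), and the 39 genes took between 0.611% and 0.929% of them. All 39 passed the filter on low counts and were tested among 16645 genes. Levels are given as normalized CPM, which are read counts scaled to library size and TMM factor, with tumors always in the order control 1, 2, 3 and 4, sunitinib-treated 5, 6, 8 and 12, and R+S-treated 4, 5, 7 and 10. Beta cell and islet markers summed to between 40405 and 87084 CPM in 11 tumors and to 11914 CPM in sunitinib-treated tumor 6, which also correlated with its group at r = 0.872 to 0.895 on the log2 scale against 0.957 to 0.991 for all other pairs within a group. Acinar markers are genes of the pancreatic cells around the islets. Their sum was 41.6 to 133 CPM in the controls, 11715 to 42127 CPM after sunitinib and 3157 to 17649 CPM after R+S. Treatment and acinar RNA therefore cannot be told apart against the controls, and the source of this RNA was not tested. All 4 controls carry 1 label prefix that the treated tumors lack, and the treated groups share no prefix, so prefix and treatment cannot be told apart either, and nothing states that the 4 tumors of a group came from 4 animals. Sunitinib-treated tumors 5, 6 and 8 also share a prefix, and so do R+S-treated tumors 5 and 7. If a prefix names an animal, the 4 controls came from 1 mouse, and the treated tumors that share a prefix also came from the same mouse. The SE and p-values given here, also for R+S versus sunitinib, then cover the spread between tumors but not between animals. In tumor RNA, fewer cells of a type and less RNA per cell cannot be told apart.

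The promoters of these genes were searched for the letters that TFEB, TFE3 and MITF are known to bind. The searched letters were the E-box core CACGTG and the longer TCACGTGA, the core of the CLEAR element. Both read the same on either strand, and each TCACGTGA contains a CACGTG. RefSeq promoter windows on GRCm38.p6, from 250 bases before to 50 bases after a start, were at hand for 31 of the 39 genes. CACGTG was in a window of 12 of these 31 genes (38.7%), against 2187 of all 27025 genes of the table (8.09%), and TCACGTGA in 6 of 31 (19.4%), against 304 of 27025 (1.12%). Among the 12036 genes that were tested and have a window, as the 31 were, the shares were 11.1% and 1.99%. Of pathway genes outside the 39, some groups had similar shares and others lower ones. CACGTG was in 6 of 13 nutrient sensing, 5 of 20 membrane and sorting, 5 of 26 hydrolase, 4 of 33 autophagy and 2 of 15 V-ATPase genes. For TCACGTGA these were, in the same order, 0 of 13, 4 of 20, 0 of 26, 1 of 33 and 1 of 15. Among the 39 the genes with TCACGTGA were Ctsa, Ctsd, Gla, Mcoln1, Atp6v0d1 and Atp6v1a. Lamp1 had 4 CACGTG without the flanking letters, and Tfeb, Tfe3 and Mitf had none. 5 windows are printed here with the letters in capitals: Ctsd, Gla and Ctsl, whose RNA was higher after sunitinib, Mcoln1, a calcium channel gene often used as a TFEB target, and Ctsz, whose RNA moved most when rapamycin was added and whose window holds no CACGTG.
Ctsd, chr7:142387778-142388077, strand -: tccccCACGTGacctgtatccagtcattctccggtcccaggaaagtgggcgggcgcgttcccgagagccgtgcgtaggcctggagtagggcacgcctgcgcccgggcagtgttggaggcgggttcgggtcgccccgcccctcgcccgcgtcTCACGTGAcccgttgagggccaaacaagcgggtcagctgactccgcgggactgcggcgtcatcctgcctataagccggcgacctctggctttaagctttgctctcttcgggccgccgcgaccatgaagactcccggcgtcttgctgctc
Gla, chrX:134600956-134601255, strand -: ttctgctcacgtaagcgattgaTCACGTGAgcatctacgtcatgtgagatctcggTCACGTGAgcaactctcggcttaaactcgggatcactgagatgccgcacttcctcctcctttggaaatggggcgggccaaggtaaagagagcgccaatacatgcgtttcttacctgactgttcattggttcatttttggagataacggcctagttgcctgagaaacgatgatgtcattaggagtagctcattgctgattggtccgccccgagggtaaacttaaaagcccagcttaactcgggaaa
Mcoln1, chr8:3500269-3500568, strand +: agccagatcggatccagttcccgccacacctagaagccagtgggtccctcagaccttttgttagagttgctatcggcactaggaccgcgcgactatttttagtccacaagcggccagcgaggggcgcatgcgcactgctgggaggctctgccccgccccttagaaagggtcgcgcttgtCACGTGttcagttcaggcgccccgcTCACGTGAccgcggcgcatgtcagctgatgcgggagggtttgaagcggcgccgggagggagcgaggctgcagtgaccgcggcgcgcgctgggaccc
Ctsl, chr13:64370471-64370770, strand -: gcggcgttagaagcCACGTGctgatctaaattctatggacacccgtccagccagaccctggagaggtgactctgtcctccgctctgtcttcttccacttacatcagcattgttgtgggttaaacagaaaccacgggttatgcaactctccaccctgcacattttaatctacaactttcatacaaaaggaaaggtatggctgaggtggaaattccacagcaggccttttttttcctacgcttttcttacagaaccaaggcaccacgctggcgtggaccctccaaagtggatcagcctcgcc
Ctsz, chr2:174438990-174439289, strand -: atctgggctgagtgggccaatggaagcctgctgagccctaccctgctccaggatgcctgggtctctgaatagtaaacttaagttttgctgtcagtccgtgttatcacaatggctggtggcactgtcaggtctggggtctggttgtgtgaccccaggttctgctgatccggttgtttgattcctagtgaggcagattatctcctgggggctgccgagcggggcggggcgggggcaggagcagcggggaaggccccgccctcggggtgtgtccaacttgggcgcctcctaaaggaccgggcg
In Ctsd the first letters of the CACGTG copies lay 245 and 98 bases before the start, and the second was part of a TCACGTGA. Gla had both of its copies inside a TCACGTGA, with their CACGTG 227 and 194 bases before the start. Mcoln1 held copies 71 and 45 bases before the start, and Ctsl had 1 copy 236 bases before it.

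When rapamycin was added to sunitinib, few of these genes were called, and those that passed the edgeR test were lower. Ctsz, Ctsl and Tfeb fell relative to sunitinib alone, by 2.09-fold, 1.94-fold and 1.51-fold, and 0 of the 39 genes passed as higher. Those 3 genes are 7.69% of the 39, and over all 16645 tested genes 7.21% passed the same threshold (438 genes, 2.63%, higher and 762, 4.58%, lower), so the share called was close to the background. The median log2 fold change of the 39 genes was -0.074, against -0.025 over all tested genes, with 14 of the 39 above 0 and 25 below. At an unadjusted p under 0.05 there were 10 of the 39, which is to be read beside 30.4% of all tested genes. DESeq2, which called 18.5% of its tested genes, called 6 of the 39, the same 3 with Gla lower and with Npc1 and Ulk1 higher. The groups did not overlap for 3 genes that were higher (8.9% of all genes) and 4 that were lower (9.73% of all genes) after R+S.

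After sunitinib alone 5 of the 39 genes passed, 4 of them cathepsins. Relative to the controls, Ctsl, Ctsz, Ctsd and Gla rose by 2.09-fold, 1.73-fold, 1.68-fold and 1.62-fold, and Ctsc fell by 1.87-fold. The 4 risen genes are 10.3% of the 39, against 1.93% of all tested genes that rose, and the 1 fallen gene is 2.56%, against 2.55%; in either direction 4.48% of all genes passed. The median log2 fold change of the 39 was 0.16, against 0.031 over all tested genes, and 27 of the 39 were above 0. The groups did not overlap for 5 higher genes, Ctsb with the 4 above (5.17% of all genes), and 1 lower gene (5.76%). DESeq2 called the same 5 and Ctsb higher, beside 9.06% of its tested genes. Between R+S and the controls 0 of the 39 passed the edgeR test, against 4.16% of all genes (1.55% higher and 2.61% lower); 5 had an unadjusted p under 0.05 (20.1% of all genes) and DESeq2 called 1, Ctsc (10.4% of its tested genes). R+S-treated tumors and controls did not overlap for 6 higher genes (15.4% of the 39, against 11.6% of all genes) and 2 lower genes (5.13%, against 11.9%). The comparisons share tumors: a gene that happened to be high in the 4 sunitinib-treated tumors appears as raised against the controls and as lowered by R+S at once.

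**Figure D1:**
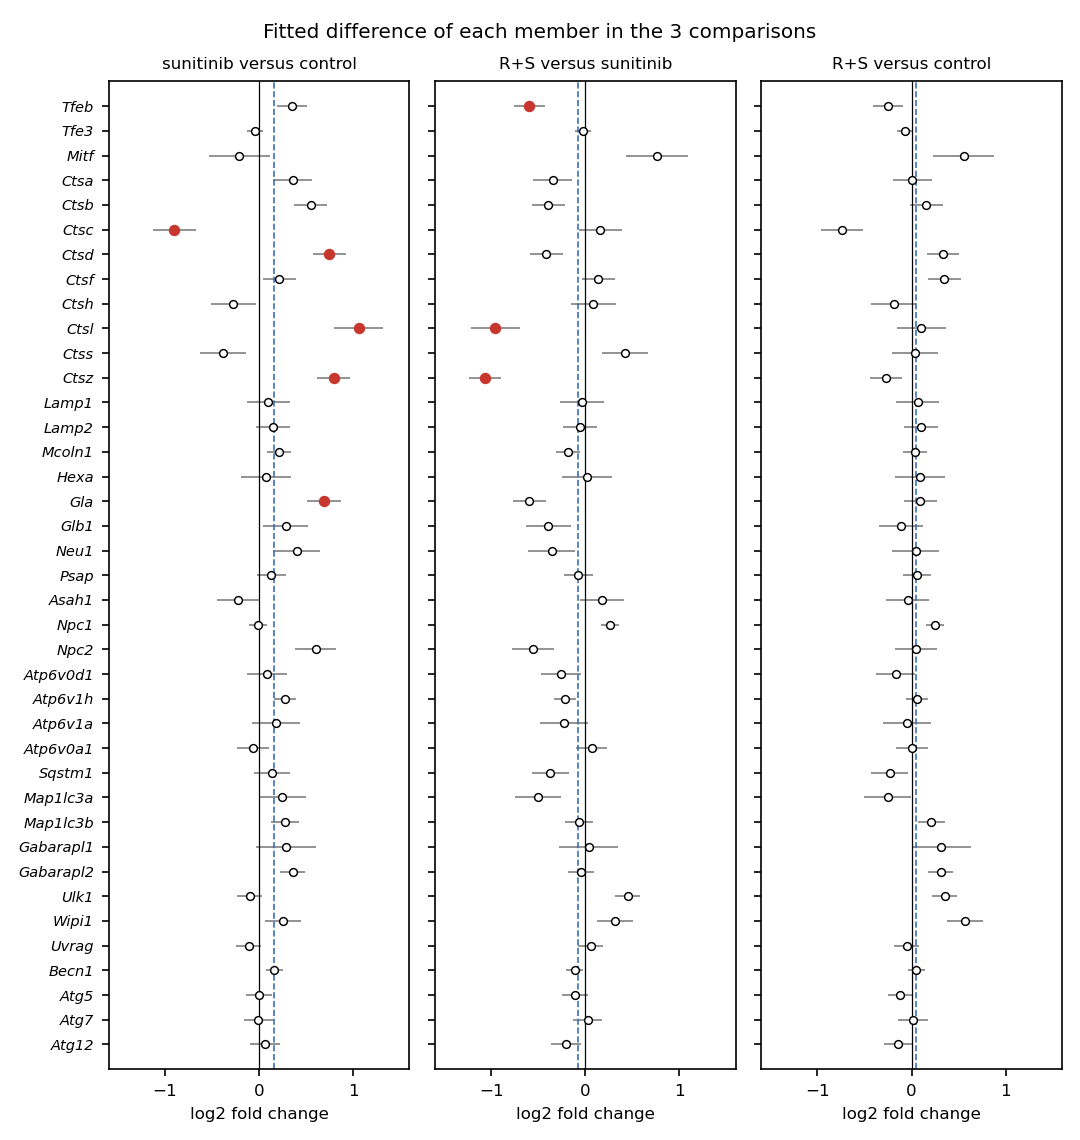
Fitted log2 fold change of each of the 39 genes (horizontal axis, bars are ± 1 SE) in the 3 comparisons, grouped by role from top to bottom. Red points have an edgeR adjusted p under 0.05 over 16645 genes, and the dashed blue line is the median of the 39; 5 genes are red where sunitinib is set against control, 3 where R+S is set against sunitinib and 0 where R+S is set against control.

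These calls were close to the threshold and depended on single tumors. When each of the 12 tumors was left out in turn, the number of the 39 called for R+S versus sunitinib ran from 0 to 5. Over all tested genes the number called in these fits ran from 0 to 2861. Without R+S-treated tumor 4, 5 or 7 none of the 39 passed (0 in each fit), and over all genes only 1, 0 and 1 passed. Without sunitinib-treated tumor 6, the library that stands apart, Ctsz, Tfeb, Ctsd and Ulk1 passed for R+S versus sunitinib, beside 10.1% of all genes tested in that fit. Ctsz, Ctsd and Ctsb passed there for sunitinib versus control (5.3% of all genes), and Mitf, Ulk1 and Ctsc for R+S versus control (9.67% of all genes). Where the treated tumors that share a label prefix were summed into 1 library, Ctsl (adjusted p = 0.112) and Tfeb (adjusted p = 0.0675) were lost for R+S versus sunitinib, Ctsz passed and Mitf passed as higher (6.09% of all genes). For sunitinib versus control that fit lost Ctsl (adjusted p = 0.0916) and called Ctsd, Ctsz, Gla and Ctsc (4.39% of all genes), with the 4 controls kept apart. No fold change of a called gene turned its direction in any of the 21 other fits.

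Of the 3 regulators, Tfeb fell when rapamycin was added, and Tfe3 and Mitf did not pass. Tfeb (ENSMUSG00000023990, chr17:47737030-47792419) encodes the master factor of lysosomal genes. Its normalized CPM was 15.4, 13.0, 12.2 and 11.1 in the control tumors, 16.3, 16.7, 13.1 and 19.6 in the sunitinib-treated tumors and 11.4, 10.5, 11.4 and 10.2 in the R+S-treated tumors. The R+S-treated tumors were the lowest and lay together, below every sunitinib-treated tumor and overlapping the lowest control. The log2 fold change was -0.59 ± 0.16 (SE) for R+S versus sunitinib (edgeR adjusted p = 0.0470), from 16.4 ± 2.64 to 10.9 ± 0.600 CPM (SD, n = 4 each). The exact permutation test of 4 against 4 tumors gave p = 0.0286, the smallest it can give, as it does for each gene below whose 2 groups did not overlap. Against the controls Tfeb did not pass, with 0.35 ± 0.16 after sunitinib (edgeR adjusted p = 0.257) and -0.25 ± 0.16 after R+S (edgeR adjusted p = 0.415). The call held in 3 of 12 fits without 1 tumor, those without sunitinib-treated tumor 5, 6 or 8. Among the 9 other settings it held in 4 and was lost with library size only (adjusted p = 0.0535), with prefixes summed (0.0675), with no filter on low counts (0.0897), with the acinar covariate (0.113) and with only the 8 tumors compared (0.118). In the 9 fits without 1 tumor that lost it the adjusted p was between 0.0519 and 0.128, and the log2 fold change over all 12 such fits ran from -0.68 to -0.50.

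Tfe3 (ENSMUSG00000000134, chrX:7762560-7775202), a close relative of TFEB, had no difference that passed. Normalized CPM of Tfe3 was 69.6, 66.3, 62.6 and 59.4 in the control tumors, 63.7, 63.2, 60.2 and 63.3 in the sunitinib-treated tumors and 61.7, 60.5, 62.7 and 61.3 in the R+S-treated tumors. All 12 tumors lay between 59.4 and 69.6 CPM, and the log2 fold change for R+S versus sunitinib was -0.025 ± 0.084 (edgeR adjusted p = 0.863). Mitf (ENSMUSG00000035158, chr6:97807052-98021349), better known from pigment cells, had the lowest CPM of the 3 in the controls and after sunitinib, though not after R+S. Mitf CPM was 7.74, 8.31, 8.04 and 7.75 in the control tumors, 9.44, 2.40, 8.52 and 7.16 in the sunitinib-treated tumors and 11.2, 13.1, 10.3 and 12.1 in the R+S-treated tumors. Every R+S-treated tumor was above every other tumor for Mitf, and sunitinib-treated tumor 6 was far below the rest. The difference between R+S and sunitinib was 0.76 ± 0.33 on the log2 scale and did not pass (edgeR adjusted p = 0.141), and without tumor 6 it was 0.48 (adjusted p = 0.0677). Against the controls Mitf was 0.55 ± 0.32 after R+S (edgeR adjusted p = 0.364), and without sunitinib-treated tumor 6 in the fit that comparison passed, at 0.55 (adjusted p = 0.0337).

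**Figure D2:**
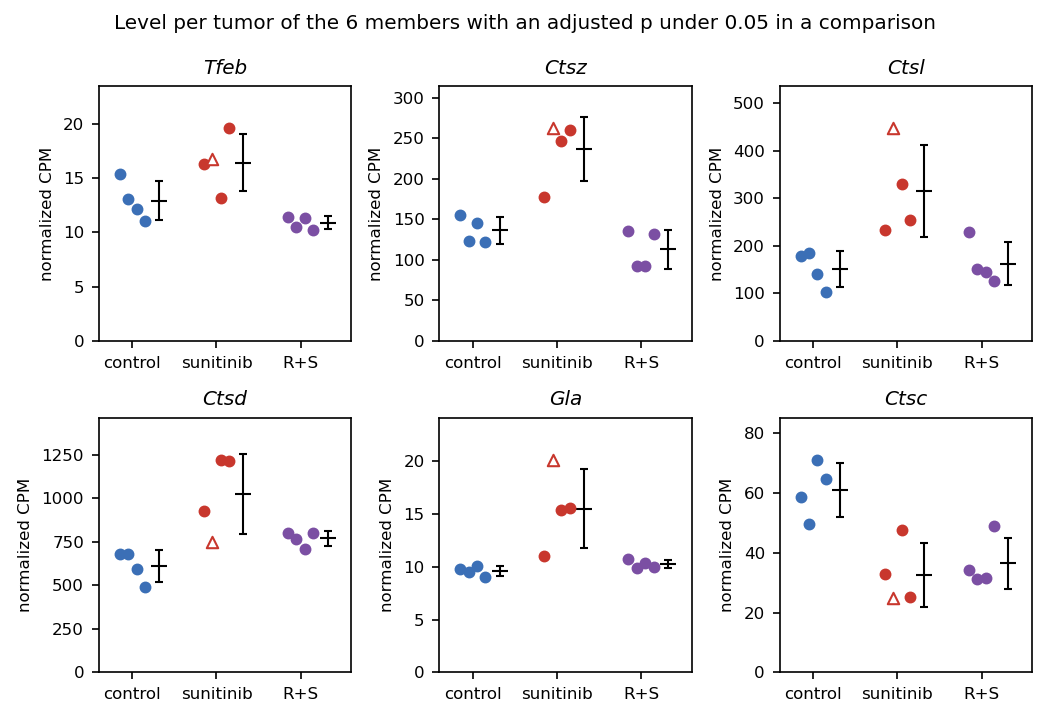
Normalized CPM (vertical axes, from 0) of the 6 genes that passed the test in at least 1 comparison, in each of the 12 tumors; points are tumors, open triangles are sunitinib-treated tumor 6, and black bars are mean ± SD of 4 tumors. Ctsz, Ctsl and Gla were highest in the sunitinib-treated tumors and overlapped in the other two groups, and Ctsc was lower in both treated groups than in the controls.

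Among the 9 cathepsins, sunitinib was followed by higher aspartic and some cysteine cathepsins and lower Ctsc, and the addition of rapamycin by lower Ctsz and Ctsl. 3 of 9 rose and 1 fell for sunitinib versus control (1.93% and 2.55% of all genes), and 2 of 9 fell for R+S versus sunitinib (4.58% of all genes), with medians of 0.36 and -0.35. Ctsz (ENSMUSG00000016256, chr2:174427493-174439039) encodes cathepsin Z, a carboxypeptidase. Its normalized CPM was 155, 124, 146 and 122 in the control tumors, 178, 262, 247 and 261 in the sunitinib-treated tumors and 135, 92.6, 92.1 and 133 in the R+S-treated tumors. All 4 sunitinib-treated tumors were above all 8 others. Sunitinib against control gave 0.79 ± 0.17 (edgeR adjusted p = 0.0230), from 137 ± 16.4 to 237 ± 39.8 CPM (SD, n = 4 each). R+S against sunitinib gave -1.07 ± 0.17 (edgeR adjusted p = 0.0233), down to 113 ± 24.1 CPM, and R+S against control -0.27 ± 0.17 (edgeR adjusted p = 0.406). The Ctsz calls held in most fits without 1 tumor. For R+S versus sunitinib it held in 9 of 12 fits without 1 tumor and was lost without R+S-treated tumor 4, 5 or 7 (adjusted p 0.0623 to 0.0935). For sunitinib versus control it held in 8 of 12 and was lost without control 2, 3 or 4 or sunitinib-treated tumor 12 (adjusted p 0.0558 to 0.0822). Among the 9 other settings the R+S versus sunitinib call of Ctsz held in 8. It was lost with only the 8 tumors compared (edgeR adjusted p = 0.0994). The sunitinib versus control call held in 7 of these 9.

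Cathepsin L, an endopeptidase that also matures other enzymes of the lysosome, is encoded by Ctsl (ENSMUSG00000021477, chr13:64359337-64370890). For Ctsl the CPM was 178, 185, 140.0 and 103 in the control tumors, 233, 447, 331 and 255 in the sunitinib-treated tumors and 229, 152, 145 and 126 in the R+S-treated tumors. Tumor 6 was the highest of the 12, and the sunitinib-treated tumors were above all others, though R+S-treated tumor 4 at 229 CPM came next to the lowest of them at 233 CPM. The log2 fold change was 1.06 ± 0.26 for sunitinib versus control (edgeR adjusted p = 0.0411) and -0.96 ± 0.26 for R+S versus sunitinib (edgeR adjusted p = 0.0480). Group means were 152 ± 37.9, 316 ± 96.8 and 163 ± 45.3 CPM (SD, n = 4 each). Without tumor 6 neither passed, at 0.85 (adjusted p = 0.0707) and -0.74 (adjusted p = 0.0678). The R+S call held only in the fit without sunitinib-treated tumor 5, and the adjusted p in the other 11 was 0.0519 to 0.130. The sunitinib call held in 4 of 12 fits, those without sunitinib-treated tumor 5 or 12 or R+S-treated tumor 4 or 10, and in the other 8 the adjusted p was 0.0558 to 0.129. Each of these Ctsl calls held in 5 of the 9 other settings. Of the 50-base words of Ctsl transcripts, 1.16% also occur in another listed gene.

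Ctsd (ENSMUSG00000007891, chr7:142375911-142388038) encodes cathepsin D, the main aspartic protease of the lysosome. Ctsd CPM was 678, 681, 592 and 491 in the control tumors, 925, 749, 1220.4 and 1212 in the sunitinib-treated tumors and 799, 769, 711 and 800.5 in the R+S-treated tumors. Every sunitinib-treated and every R+S-treated tumor exceeded every control. The rise after sunitinib was 0.75 ± 0.18 (edgeR adjusted p = 0.0320), from 611 ± 89.7 to 1026 ± 230.5 CPM (SD, n = 4 each). R+S did not pass against sunitinib, at -0.42 ± 0.17 (edgeR adjusted p = 0.136), nor against control, at 0.33 ± 0.17 (edgeR adjusted p = 0.307). Tumor 6 was the lowest of its group for Ctsd, and without it R+S versus sunitinib passed at -0.54 (adjusted p = 0.0436). The sunitinib call held in 3 of 12 fits, without sunitinib-treated tumor 5 or 6 or R+S-treated tumor 10, and the adjusted p in the other 9 was 0.0511 to 0.109. It also held in 7 of the 9 other settings.

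Cathepsin B, another cysteine protease, had the same order of groups. For Ctsb (ENSMUSG00000021939, chr14:63122462-63145923) the CPM was 642, 611, 669 and 479 in the control tumors, 766, 675, 993 and 1082 in the sunitinib-treated tumors and 748, 591, 654 and 685 in the R+S-treated tumors. All sunitinib-treated tumors were above all controls, and all but tumor 6 were above all R+S-treated tumors. The log2 fold change was 0.55 ± 0.17 for sunitinib versus control (edgeR adjusted p = 0.111) and -0.39 ± 0.17 for R+S versus sunitinib (edgeR adjusted p = 0.150), and neither passed. DESeq2 called the first, at 0.56 (adjusted p = 0.0294), and without tumor 6 it passed in edgeR, at 0.66 (adjusted p = 0.0326).

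Ctsc (ENSMUSG00000030560, chr7:88278085-88310888) went the other way. It encodes cathepsin C, which activates serine proteases of immune cells. Its normalized CPM was 58.6, 49.6, 71.0 and 64.5 in the control tumors, 32.9, 24.8, 47.6 and 25.3 in the sunitinib-treated tumors and 34.1, 31.3, 31.5 and 49.1 in the R+S-treated tumors. All 8 treated tumors were below all 4 controls. Sunitinib against control gave -0.90 ± 0.23 (edgeR adjusted p = 0.0462), from 60.9 ± 9.08 to 32.7 ± 10.7 CPM (SD, n = 4 each), and R+S against control -0.74 ± 0.23 (edgeR adjusted p = 0.0906). Adding rapamycin left Ctsc at 0.16 ± 0.23 relative to sunitinib (edgeR adjusted p = 0.650). Of the 12 fits without 1 tumor, the sunitinib call held only without sunitinib-treated tumor 8 or R+S-treated tumor 10. The adjusted p in the other 10 fits was 0.0550 to 0.144. In the 9 other settings the call held in 4. Most of the 15 macrophage and myeloid markers were also lower after sunitinib, 12 below 0 and 3 above, with a median log2 fold change of -0.57. Their sum was 725 to 1011 CPM in the controls, 305 to 908 CPM after sunitinib and 472 to 706 CPM after R+S. The sums after sunitinib overlapped those of the controls. None of the 15 markers was at 0 in all tumors. After sunitinib 4 of the 15 passed as lower (Adgre1, Mrc1, Fcgr1 and Cx3cr1) and 0 as higher. The 4 are 26.7%, against 2.55% of all genes that passed as lower. The mean log2 level of this list was also fitted as a covariate. With it the log2 fold change of Ctsc for sunitinib versus control was -0.32 (edgeR adjusted p = 0.547). That of Ctsd was 1.10 (0.0386), of Ctsz 0.89 (0.195), of Ctsl 0.58 (0.460) and of Gla 0.46 (0.426). Of these genes only Ctsd still passed. Over all tested genes the covariate took the number called in that comparison from 745 to 236. Whether a lower macrophage content accounts for the fall of Ctsc was not tested. For R+S versus sunitinib the same covariate left Ctsz at -1.07, Ctsl at -0.93 and Tfeb at -0.59, all 3 passing.

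The other 4 cathepsins passed in no comparison. Ctss, a protease of antigen-presenting cells, was -0.38 ± 0.25 for sunitinib versus control and 0.42 ± 0.25 for R+S versus sunitinib on the log2 scale. Ctsh, an aminopeptidase, was -0.27 ± 0.24 and 0.084 ± 0.24. In sunitinib-treated tumor 6 both were lowest of all 12, at 73.6 CPM for Ctss and 18.8 CPM for Ctsh, and that tumor also had the lowest macrophage marker sum, 305 CPM. Ctsa, a carboxypeptidase that protects galactosidase and neuraminidase, was 0.36 ± 0.21 and -0.35 ± 0.21. Ctsf was 0.21 ± 0.18 and 0.14 ± 0.18. The smallest edgeR adjusted p of these 4 in either comparison was 0.265.

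**Figure D3:**
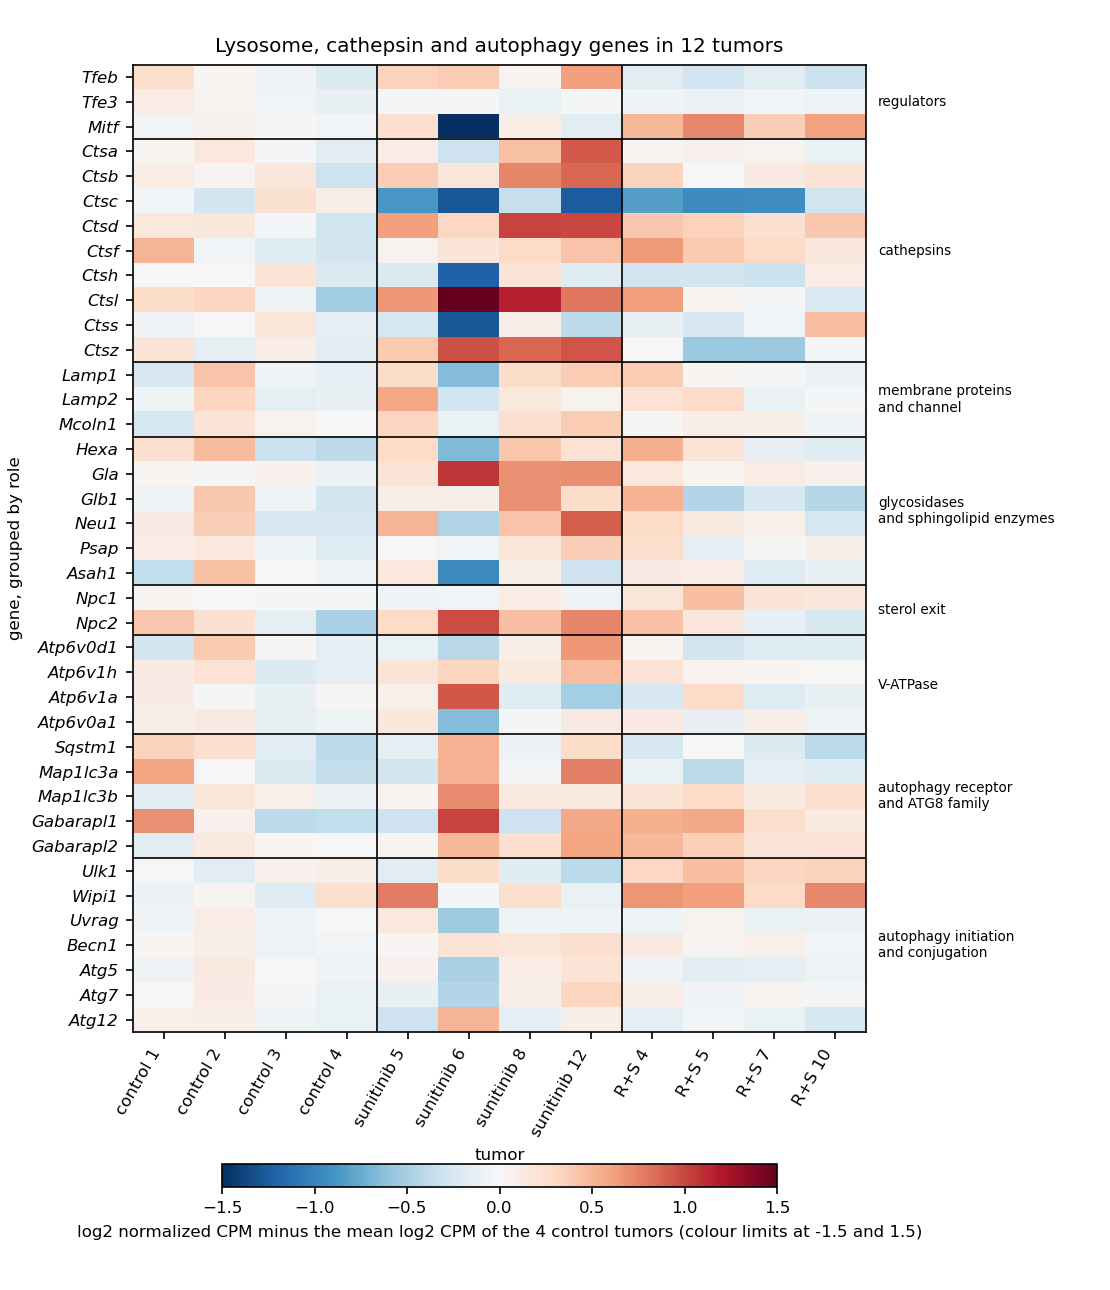
Level of the 39 genes (vertical axis, grouped by role) in the 12 tumors (horizontal axis), as log2 normalized CPM minus the mean log2 CPM of the 4 controls; red is higher and blue lower, with colour limits at -1.5 and 1.5. Ctsl, Ctsz and Ctsd are red in the sunitinib-treated tumors, Ctsc is blue in both treated groups, and sunitinib-treated tumor 6 differs from its group in many rows.

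The membrane proteins and the calcium channel did not pass in any comparison. Lamp1 (ENSMUSG00000031447, chr8:13159161-13175338) encodes the most abundant glycoprotein of the lysosomal membrane. Normalized CPM of Lamp1 was 569, 914, 648 and 624 in the control tumors, 819, 431, 820.2 and 882 in the sunitinib-treated tumors and 884, 690.1, 668 and 639 in the R+S-treated tumors. The ranges of the groups overlapped throughout, with sunitinib-treated tumor 6 lowest of all, and the log2 fold change was -0.035 ± 0.23 for R+S versus sunitinib (edgeR adjusted p = 0.933). Mcoln1 (ENSMUSG00000004567, chr8:3500457-3515232) encodes the channel TRPML1, which releases calcium from the lysosome. Mcoln1 CPM was 64.6, 89.2, 80.8 and 77.8 in the control tumors, 97.0, 72.2, 91.5 and 101 in the sunitinib-treated tumors and 78.6, 83.1, 83.0 and 74.9 in the R+S-treated tumors. Sunitinib versus control was 0.21 ± 0.13 and R+S versus sunitinib -0.18 ± 0.13 (edgeR adjusted p = 0.385 and 0.359). Lamp2, whose product also serves chaperone-mediated autophagy, was -0.053 ± 0.18 for R+S versus sunitinib.

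Of the 6 genes for glycosidases and sphingolipid breakdown, only Gla passed. Gla (ENSMUSG00000031266, chrX:134588149-134601125) encodes alpha-galactosidase A, which removes galactose from glycolipids. Normalized CPM of Gla was 9.80, 9.47, 10.0 and 9.05 in the control tumors, 11.0, 20.1, 15.4 and 15.6 in the sunitinib-treated tumors and 10.7, 9.90, 10.4 and 10.0 in the R+S-treated tumors. The controls and the R+S-treated tumors filled a narrow band from 9.05 to 10.7 CPM, and all sunitinib-treated tumors were above it, tumor 5 just so. The rise after sunitinib was 0.69 ± 0.18 (edgeR adjusted p = 0.0485), from 9.59 ± 0.431 to 15.5 ± 3.72 CPM (SD, n = 4 each). R+S versus sunitinib was -0.60 ± 0.18 and missed the threshold (edgeR adjusted p = 0.0594). The sunitinib call held only in the fit without sunitinib-treated tumor 5. In the other 11 fits the adjusted p was 0.0660 to 0.143, and without tumor 6 the value was 0.54. Of the 9 other settings, 3 kept the sunitinib call of Gla. Neu1, a neuraminidase, and Glb1, the beta-galactosidase, were 0.40 ± 0.25 and 0.28 ± 0.24 after sunitinib and -0.36 ± 0.25 and -0.39 ± 0.24 when rapamycin was added. Psap, the precursor of the saposins, Hexa and Asah1, a ceramidase, were -0.074 ± 0.15, 0.018 ± 0.27 and 0.18 ± 0.23 for R+S versus sunitinib. The smallest edgeR adjusted p of these 5 in either comparison was 0.277. For Glb1, 4.19% of its 50-base words occur in another listed gene, Tmppe, so its count is less certain.

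Npc1 and Npc2 hand cholesterol out of the lysosome, and neither passed in any comparison. Npc1, the membrane transporter, was -0.011 ± 0.10 for sunitinib versus control and 0.26 ± 0.10 for R+S versus sunitinib, with all R+S-treated tumors above all sunitinib-treated tumors but no pass (edgeR adjusted p = 0.0965). Npc2, the soluble carrier, was 0.60 ± 0.22 for sunitinib versus control (edgeR adjusted p = 0.163) and -0.55 ± 0.22 for R+S versus sunitinib (edgeR adjusted p = 0.122), neither passing. The 4 V-ATPase subunits did not pass either. Atp6v0d1, Atp6v1h and Atp6v1a were -0.26 ± 0.21, -0.21 ± 0.12 and -0.23 ± 0.26 for R+S versus sunitinib and Atp6v0a1 0.069 ± 0.17. In tumor 6 Atp6v1a was the highest of the 12, at 213 CPM, and without that tumor its value turned to 0.14.

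Of the autophagy receptor and the ATG8 family, 0 of 5 passed in any comparison. Sqstm1 (ENSMUSG00000015837, chr11:50199366-50210827) encodes p62, which ties ubiquitinated cargo to the autophagic membrane and is itself degraded with it. Normalized CPM of Sqstm1 was 435, 407, 306 and 264 in the control tumors, 313, 497, 326 and 419 in the sunitinib-treated tumors and 294, 348, 299 and 260.2 in the R+S-treated tumors. R+S-treated tumors 4, 5 and 7 lay within the range of the controls and tumor 10 just below it, and the log2 fold change for R+S versus sunitinib was -0.37 ± 0.20 (edgeR adjusted p = 0.217). Map1lc3b (ENSMUSG00000031812, chr8:121590361-121598760) encodes LC3B, the ATG8 protein used to count autophagosomes. Map1lc3b CPM was 63.6, 81.6, 75.4 and 67.4 in the control tumors, 73.7, 117, 79.2 and 79.4 in the sunitinib-treated tumors and 82.9, 87.1, 78.9 and 84.3 in the R+S-treated tumors. Tumor 6 was highest by far, the other 11 lay between 63.6 and 87.1 CPM, and R+S versus sunitinib was -0.067 ± 0.15 (edgeR adjusted p = 0.779). With the listed gene Gm6055 it shares 5.58% of its 50-base words. The remaining ATG8 genes had -0.50 ± 0.25 (Map1lc3a), 0.035 ± 0.32 (Gabarapl1) and -0.045 ± 0.13 (Gabarapl2) for R+S versus sunitinib.

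Of the 7 genes that start autophagy or build its membrane, 0 passed in the fit of all tumors, and Ulk1 came closest when rapamycin was added. Ulk1 (ENSMUSG00000029512, chr5:110784488-110810097) encodes the kinase that starts autophagy and that mTORC1 inhibits. Ulk1 CPM was 71.2, 64.3, 74.7 and 76.8 in the control tumors, 64.0, 86.3, 63.2 and 54.2 in the sunitinib-treated tumors and 88.9, 97.5, 89.6 and 90.0 in the R+S-treated tumors. Every R+S-treated tumor was above every other tumor, by a small margin over sunitinib-treated tumor 6. R+S versus sunitinib was 0.45 ± 0.13, a 1.37-fold difference that missed the threshold (edgeR adjusted p = 0.0600), and R+S versus control was 0.35 ± 0.13 (edgeR adjusted p = 0.167). Without tumor 6 both passed, at 0.60 (adjusted p = 0.0206) and 0.35 (adjusted p = 0.0385), and DESeq2 on all 12 tumors called the first, at 0.44 (adjusted p = 0.0184). Wipi1, which binds the lipid of the forming membrane, was 0.57 ± 0.19 for R+S versus control, with no overlap but no pass (edgeR adjusted p = 0.123). The conjugation genes Atg5, Atg7 and Atg12 and the lipid kinase partners Becn1 and Uvrag were -0.11 ± 0.14, 0.024 ± 0.16, -0.21 ± 0.16, -0.11 ± 0.089 and 0.059 ± 0.13 for R+S versus sunitinib, all with an edgeR adjusted p of at least 0.394.

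Other genes of the same pathway, numbered 131, of which 128 were tested. For R+S versus sunitinib 4 rose and 1 fell (3.91%, against 7.21% of all genes), and for sunitinib versus control 1 rose (Bnip3) and 1 fell (Ids), 1.56% against 4.48%. Atg13 was the 1 gene that passed for R+S versus control, as higher, 0.781% against 4.16%. Without sunitinib-treated tumor 6, 5 rose and 5 fell for R+S versus sunitinib (7.81%, against 10.1% of all genes tested in that fit). Atg13, a partner of ULK1 in the initiation complex, had the smallest adjusted p. Its CPM was 107, 101, 88.2 and 85.0 in the control tumors, 83.5, 81.5, 80.7 and 82.3 in the sunitinib-treated tumors and 128, 122, 119.7 and 130.0 in the R+S-treated tumors. All R+S-treated tumors were above all others, at 0.61 ± 0.093 relative to sunitinib (edgeR adjusted p = 0.0189) and 0.39 ± 0.093 relative to control (edgeR adjusted p = 0.0385). Epg5, a tether of autophagosomes, Pik3r4, the scaffold of the autophagy lipid kinase, and Acp2, a lysosomal phosphatase, rose by 0.63, 0.50 and 0.36 on the log2 scale (edgeR adjusted p = 0.0320, 0.0355 and 0.0369). Atp6v0d2, a V-ATPase subunit of osteoclasts and macrophages, fell at -2.75 ± 0.68 from a low level, 6.39 ± 3.87 to 0.951 ± 0.591 CPM (edgeR adjusted p = 0.0376). Of the 15 macrophage and myeloid markers 1, Itgam, passed as lower in this comparison (6.67%, against 4.58% of all genes). On the log2 scale 7 of the 15 were above 0 and 8 below, with a median of -0.017. Plekhm1 (0.38 ± 0.11), Sort1 (0.67 ± 0.19) and Ambra1 (0.33 ± 0.10) just missed (edgeR adjusted p = 0.0510, 0.0513 and 0.0608). By list, beside 2.63% of all genes that rose and 4.58% that fell, 3 of 39 other autophagy genes rose (7.69%) and 0 fell, 1 of 34 hydrolases and activators rose, 1 of 18 V-ATPase genes fell, and 0 of 23 membrane and sorting genes and 0 of 14 nutrient sensing genes passed.

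**Figure D4:**
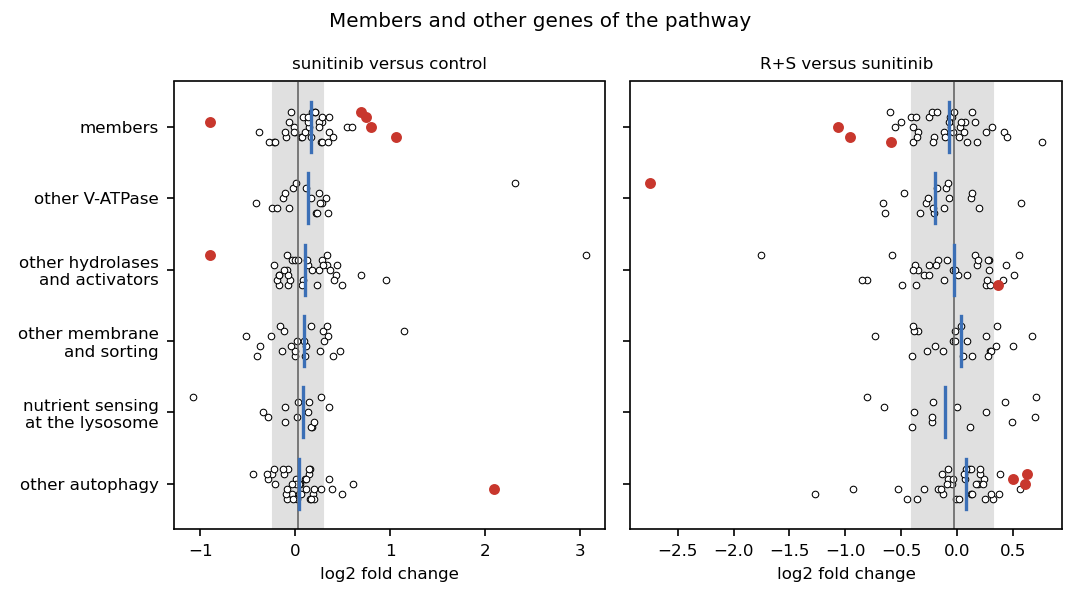
Log2 fold change (horizontal axes) of the 39 genes and of the other genes of the pathway by list (vertical axis), for sunitinib versus control and R+S versus sunitinib. Red points passed the test, blue bars are the median of a list, the grey band spans the interquartile range of all 16645 tested genes and the grey line is their median; for R+S versus sunitinib the medians ran from -0.19 for the other V-ATPase genes to 0.081 for the other autophagy genes.

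The calls were also counted by the E-box letters in the promoter window. For R+S versus sunitinib 1 of the 12 genes of the list with CACGTG was called (Ctsl, lower) and 2 of the 19 without (Ctsz and Tfeb, lower), with medians of -0.24 and -0.025. For sunitinib versus control 3 of the 12 were called higher (Ctsl, Ctsd and Gla), and of the 19 without it 1 was higher and 1 lower. Among all 1332 tested genes with CACGTG, 25 were higher and 16 lower in that comparison (3.08%), against 4.35% of the 12036. Among all 1332 tested genes with CACGTG, 22 were higher and 84 lower when rapamycin was added (7.96%), against 7.69% of the 12036 tested genes with a window. The 6 genes of the list with TCACGTGA had a median of -0.30 for R+S versus sunitinib with 0 called. Of all 239 tested genes with these letters 6.28% were called there, and their median was -0.027. For sunitinib versus control the 6 genes had a median of 0.29 with 2 called (Ctsd and Gla). There 1.67% of the 239 were called, with a median of 0.067. The letters describe the sequence, and binding was not measured.

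Levels between genes were compared per length, as normalized CPM per kilobase of exons. In the controls Psap was the highest of the 39, at 537 ± 61.9 (SD, n = 4). Ctsd at 259.7 ± 38.2 and Lamp1 at 257 ± 57.6 followed and did not differ beyond their spread. Ctss, Hexa, Sqstm1, Ctsb, Ctsz and Atp6v0d1 came next, from 132 down to 92.8, and neighbours among these overlapped within their SD. At the low end stood the regulators Mitf, 1.28 ± 0.0434, and Tfeb, 2.28 ± 0.321, with Atg7, 2.52 ± 0.165, within the spread of Tfeb. With the longest transcript as length the low end changed, with Mitf at 1.63, Gla at 3.02, Atg7 at 4.51 and Tfeb at 5.51. After R+S, per kilobase of exons, Mitf at 1.89 ± 0.196 and Tfeb at 1.92 ± 0.106 did not differ beyond their spread. In the controls Tfe3, at 6.96 ± 0.478, was the highest of the 3 regulators. After sunitinib the level of Ctsd was 437 ± 98.0 and of Ctsz 164 ± 27.6, and after R+S they were at 327 ± 17.7 and 78.5 ± 16.7.

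**Figure D5:**
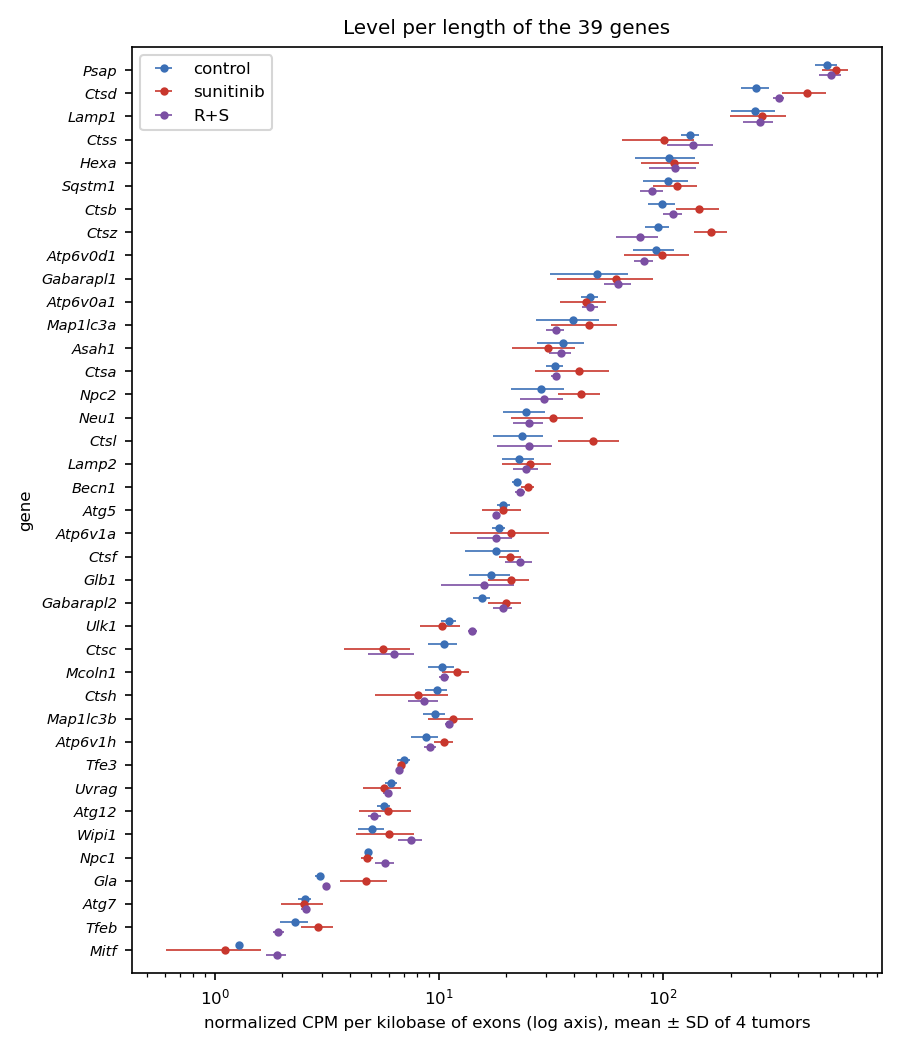
Normalized CPM per kilobase of exons (horizontal log axis) of the 39 genes, ordered by their level in the controls; points are means and bars ± SD of 4 tumors for control (blue), sunitinib (red) and R+S (purple). Psap is highest and Mitf lowest, and the sunitinib points of Ctsl, Ctsz and Ctsd lie to the right of the other groups.

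Acinar RNA also moved with sunitinib. 16 of 17 acinar markers rose for sunitinib versus control and for R+S versus control, and 0 of 17 passed for R+S versus sunitinib, where their median was -1.33. With the mean log2 level of the acinar list as a covariate, Ctsz was -0.98 for R+S versus sunitinib (edgeR adjusted p = 0.0447), Ctsl -0.84 (0.136) and Tfeb -0.57 (0.113). Against the controls that covariate separates the groups as treatment does, and 0 genes of all those tested passed with it. Endothelial markers summed to 610 to 802 CPM in the controls, 57.8 to 97.2 CPM after sunitinib and 129 to 165 CPM after R+S, and their part in these results was not tested.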

How the data were processed

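RNA-seq had been performed on 12 RIP1Tag2 tumors, grouped by the sample labels into 4 control, 4 sunitinib-treated and 4 R+S-treated tumors. The authors deposited raw whole-number counts of reads per Ensembl gene for each tumor, without normalization. Their processing notes name cutadapt 1.2.1, TopHat2 2.0.9, HTSeq 0.5.4p3 and GRCm38, and the libraries were made with a stranded mRNA kit. Multi-mapped reads are not counted by HTSeq, so genes with close copies are undercounted. The strand setting and the annotation release are not given in the sources used here. The closing summary lines of each table were left out of totals and tests.

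Symbols, coordinates and exon lengths came from GENCODE mouse release M21, and promoter windows from RefSeq. Shared sequence was counted in 50-base words of transcripts. Counts were scaled by TMM and tested by the edgeR 4.0.16 quasi-likelihood F-test (robust, R 4.3.3, limma 3.58.1) in 1 fit of all 12 tumors with 3 groups. Low genes were removed by filterByExpr (min.count 10, min.total.count 15), which left 16645 genes, and p-values were adjusted by Benjamini-Hochberg over them within each comparison, with a threshold of 0.05. The SE is the absolute log2 fold change over the square root of F. CPM was not shrunk, and the exact permutation test (two-sided, 70 arrangements) used log2 CPM with a prior count of 2. With 4 tumors a group and this depth, counting error is small for these genes and the spread between tumors sets the precision.

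On simulated counts for R+S versus sunitinib (16505 genes), the fit called 73 of 99 genes changed by 2 on the log2 scale, 31 of 99 changed by 1, and 10 of 16307 unchanged genes. The simulated tumors of a group varied independently around 1 mean per gene, and none stood apart. Fewer genes were changed than passed in the real data, so these rates need not carry over to it. Alternatives were DESeq2 1.42.0, other scalings and filters, only the tumors compared, label prefixes summed, marker covariates, and each tumor left out. Values in every tumor are given for genes that passed in a comparison and for Tfeb, Tfe3, Mitf, Ctsb, Ctsd, Ctsl, Lamp1, Mcoln1, Sqstm1, Map1lc3b and Ulk1, and up to 8 other pathway genes with the smallest adjusted p for R+S versus sunitinib are named. The genes and lists were chosen with earlier results of these data known.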

Additional observations from a re-analysis of the deposited data

Results flagged for a closer look

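In each group of 4 tumors, a tumor was examined when its gap to the nearest other, over the range of the group on the log2 scale, exceeded Dixon's 95% critical value for 4 samples. Of 117 pairs of a gene and a group, 10 were past it, and chance alone passes about 1 in 20 groups. In the sunitinib-treated group, tumor 6 was low for Lamp1 (431 CPM, the others 819 to 882) and high for Map1lc3b (117 CPM, the others 73.7 to 79.4), and this is the library with the lowest islet marker sum. Tumor 5 was low for Ctsz (178 CPM, the others 247 to 262). Tumor 8 was low for Tfe3 (60.2 CPM, the others 63.2 to 63.7) and high for Npc1 (59.1 CPM, the others 52.1 to 53.1). In the R+S-treated group, tumor 10 was low for Ctsa (145 CPM, the others 159 to 162) and high for Ctsh (47.2 CPM, the others 34.9 to 36.0), and tumor 5 was high for Npc1 (74.6 CPM, the others 61.3 to 62.4) and for Ulk1 (97.5 CPM, the others 88.9 to 90.0). In the controls, tumor 2 was high for Lamp2 (271 CPM, the others 195 to 206).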

How the results depend on the processing

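The counts of calls depended on the tool, the filter and single tumors. For R+S versus sunitinib, 1200 genes and 3 of the 39 became 3008 and 6 with DESeq2, 501 and 1 with no filter, 3 and 0 with only the 8 tumors compared, and 297 and 1 with the acinar covariate. The macrophage covariate gave 5 of the 39 in that comparison, 3 lower and 2 higher. The count over all genes in that fit is not given here, so these 5 have no background beside them. For sunitinib versus control, 745 genes and 5 of the 39 became 380 and 1 with 8 tumors, 236 and 1 with the macrophage covariate, 0 and 0 with the acinar covariate, and 408 and 3 with at least 10 reads in every tumor. DESeq2 gave 1477 genes and 6 of the 39 there. With no filter 3 of the 39 were called, and the count over all genes in that fit is not given here. For R+S versus control, 693 genes and 0 of the 39 became 1688 and 1 with DESeq2, 2557 and 4 with 8 tumors, 229 and 1 with the macrophage covariate, and 0 genes with the acinar covariate. With 1 tumor left out, genes called ran from 0 to 2861, 440 to 902 and 292 to 1627 in these 3 comparisons, and the 39 from 0 to 5, 0 to 4 and 0 to 3. The causes were not tested.

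No gene that had passed changed direction. Among the genes given tumor by tumor, 26 values that had not passed did. With the macrophage covariate they were Ctsl -0.34, Gla -0.12 and Map1lc3b -0.11 for R+S versus control, and Map1lc3b -0.074, Mitf 0.53 and Sqstm1 -0.27 for sunitinib versus control. With the acinar covariate they were Ctsl -0.50, Gla -0.0068 and Ulk1 -0.0092 for R+S versus control, Sqstm1 -0.45 for sunitinib versus control and Tfe3 0.00063 for R+S versus sunitinib. With library size only, Mcoln1 was -0.00090 for R+S versus control. With 1 tumor left out, the ranges were -0.013 to 0.40 for Ctsc, -0.22 to 0.064 for Lamp1 and -0.15 to 0.11 for Map1lc3b in R+S versus sunitinib, -0.10 to 0.22 for Ctsl, -0.048 to 0.23 for Lamp1 and -0.047 to 0.10 for Mcoln1 in R+S versus control, and -0.38 to 0.074 for Mitf and -0.0012 to 0.25 for Sqstm1 in sunitinib versus control. Of the 10 highest genes per length, 9 stayed so with the longest transcript as length. No paired analysis was possible because each pair of groups shares at most 1 replicate number and nothing ties such numbers to an animal or a litter.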
